A study of Mus musculus with 12 samples.

Results

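The 44 genes described here encode the digestive enzymes of the lysosome, its main membrane proteins, its proton pump, and the 3 transcription factors Tfeb, Tfe3 and Mitf. They were chosen by name for what their products do, with earlier results of these data known. Each of the 44 names matched 1 row of the deposited table of 21834 protein-coding genes, and all 44 were among the 11626 genes with enough counts to be tested. The cells were BV2, an immortalized mouse microglial line, made into stable puromycin-resistant lines by lentivirus carrying a control hairpin (shCtrl) or 1 hairpin against Anxa2 (shAnxa2). Both lines therefore carry a hairpin vector, and the knockdown rests on a single hairpin sequence. Each line was kept in normal culture (CTRL) or put through oxygen-glucose deprivation and reoxygenation (OGD/R, a culture model of ischemia and reperfusion), with 3 RNA-seq libraries in each of the 4 groups and 12 in all. By the labels the deprivation lasted 4 h and the reoxygenation 12 h, and the study's methods for these cells give a longer reoxygenation.

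The lysosome is an acidic organelle in which proteins, sugars and lipids taken up or discarded by the cell are broken down. A membrane pump, the V-ATPase, acidifies it with energy from ATP, and the hydrolases inside work best at that acidity. Cathepsins are its proteases, glycosidases take sugars off glycoproteins and glycolipids, and lipases, ceramidase and sphingomyelinase take lipids apart. Tfeb, Tfe3 and Mitf are related factors that bind short DNA motifs built around the E-box CACGTG in front of many lysosomal genes. Their entry into the nucleus is governed by mTORC1, a nutrient-sensing kinase complex on the lysosome's surface, so that their mRNA level is only 1 layer of their control. Microglia, the phagocytes of the brain, are rich in lysosomes.

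Total counts per library ranged from 19521877 to 27288843 (median 24531756.5), and levels are given as CPM, the count of a gene scaled to the size of its library (its total times a TMM factor). Differences were tested with edgeR's quasi-likelihood test in 1 model over the 12 libraries, and a gene was called at a Benjamini-Hochberg adjusted p under 0.05 over all 11626 genes. No test was run on the 44 genes as a set, and p-values measure the spread between these libraries. The targeted gene was examined first. The level of Anxa2 was 172 ± 6.36 CPM in shCtrl-CTRL (SD, n = 3), 279 ± 24.3 in shCtrl-OGDR, 40.4 ± 4.86 in shAnxa2-CTRL and 19.6 ± 1.26 in shAnxa2-OGDR. The shAnxa2 libraries were all below the shCtrl libraries, so Anxa2 follows the line given in the sample names, by which the libraries were grouped. A second label of the same samples goes against these names, since it ties the knockdown to treatment and not to line. Microglia and macrophage markers were all tested (12 of 12), with a summed level of 1880 to 2340 CPM over the 12 libraries. Astrocyte and neuron markers summed to 0.154 to 1.33 CPM, with 1 of 6 tested on each list, and oligodendrocyte markers to 29.3 to 36.8 CPM, with 3 of 6 tested.

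The treatment names could not be checked in the same way. Genes of the hypoxia response mostly moved in opposite directions in the 2 lines. Of 15 textbook hypoxia-response genes, a list written after the values had been seen, 14 were tested. From CTRL to OGDR, 10 rose and 2 fell in shCtrl cells, while 1 rose and 10 fell in shAnxa2 cells. Those that fell in shCtrl cells were P4ha1 and Pfkfb3, and Slc2a1 and Hk2 were not called there. By the labels the OGDR cells had 12 h of reoxygenation, and how long these genes stay changed was not tested. Of all genes tested, 32.4% rose and 31% fell in shCtrl cells, and 28.2% and 26.8% in shAnxa2 cells. Ndrg1, a stress gene induced by low oxygen, was at 10.8 ± 1.37 CPM in shCtrl-CTRL (SD, n = 3), 72.2 ± 7.75 in shCtrl-OGDR, 48.8 ± 0.996 in shAnxa2-CTRL and 8.40 ± 1.34 in shAnxa2-OGDR. Bnip3, which marks mitochondria for removal, was at 67.1 ± 8.76 CPM in shCtrl-CTRL (SD, n = 3), 216 ± 33.5 in shCtrl-OGDR, 182 ± 10.1 in shAnxa2-CTRL and 39.7 ± 2.62 in shAnxa2-OGDR. In both genes the high groups were shCtrl-OGDR and shAnxa2-CTRL. Over all genes, 5239 were called from CTRL to OGDR in both lines, and 98.6% of them changed in opposite directions. A response to OGD/R that runs the other way in shAnxa2 cells and an exchange of the treatment names within that line cannot be told apart here. All groups below are therefore the libraries labelled with that name. Values that do not use the treatment names of the shAnxa2 libraries are OGD/R in shCtrl cells and the mean difference between the lines, and both are given.

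The 44 genes differed widely in level. Per kilobase of exon, the cysteine protease Ctsz was highest at 1497.1 CPM per kb, as a mean over the 12 libraries. It was followed by Psap, the precursor of the saposins that present lipids to enzymes, at 1155.5, the aspartic protease Ctsd at 714.91 and the cysteine protease Ctsb at 662.77 CPM per kb. At the other end stood Tfeb at 7.02, Tfe3 at 7.16, the cysteine proteases Ctsh at 8.18 and Ctsf at 8.47, and the sphingomyelinase Smpd1 at 8.72 CPM per kb. Together the 44 genes took 2.463 ± 0.03% (SD, n = 3) of all counts in shCtrl-CTRL, 2.78 ± 0.0374% in shCtrl-OGDR, 2.537 ± 0.0295% in shAnxa2-CTRL and 2.416 ± 0.0333% in shAnxa2-OGDR. The cathepsin genes alone held 1.057%, 1.229%, 1.12% and 1.031% of counts in the same order of groups. The share of the 44 genes was thus highest in shCtrl-OGDR. The shCtrl-CTRL libraries (2.432% to 2.492%) and the shAnxa2-OGDR libraries (2.377% to 2.436%) overlapped.

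The larger changes were found among the less abundant members. Among the 22 genes with the higher level per kb, the largest log2 fold change of each gene over the 4 comparisons of groups had a median size of 0.261, and none reached 1.5-fold. Among the 22 with the lower level the median size was 0.384, and 5 genes reached 1.5-fold, namely Naglu, Ctsc, Ctsf, Ctsh and Tfeb. In the single comparisons, 4.17% to 14.4% of all genes were called past 1.5-fold in a given direction. The same split by level was not made over all genes, so it is not known to be particular to the 44. The root mean square of log2 differences over the 44 genes was 0.0822 to 0.11 between libraries of 1 group. Between groups it was smallest for shCtrl-CTRL against shAnxa2-OGDR (0.238) and largest for shCtrl-OGDR against shAnxa2-OGDR (0.479). Within the shCtrl line the distance from CTRL to OGDR was 0.379, and within the shAnxa2 line it was 0.265.

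**Figure D1:**
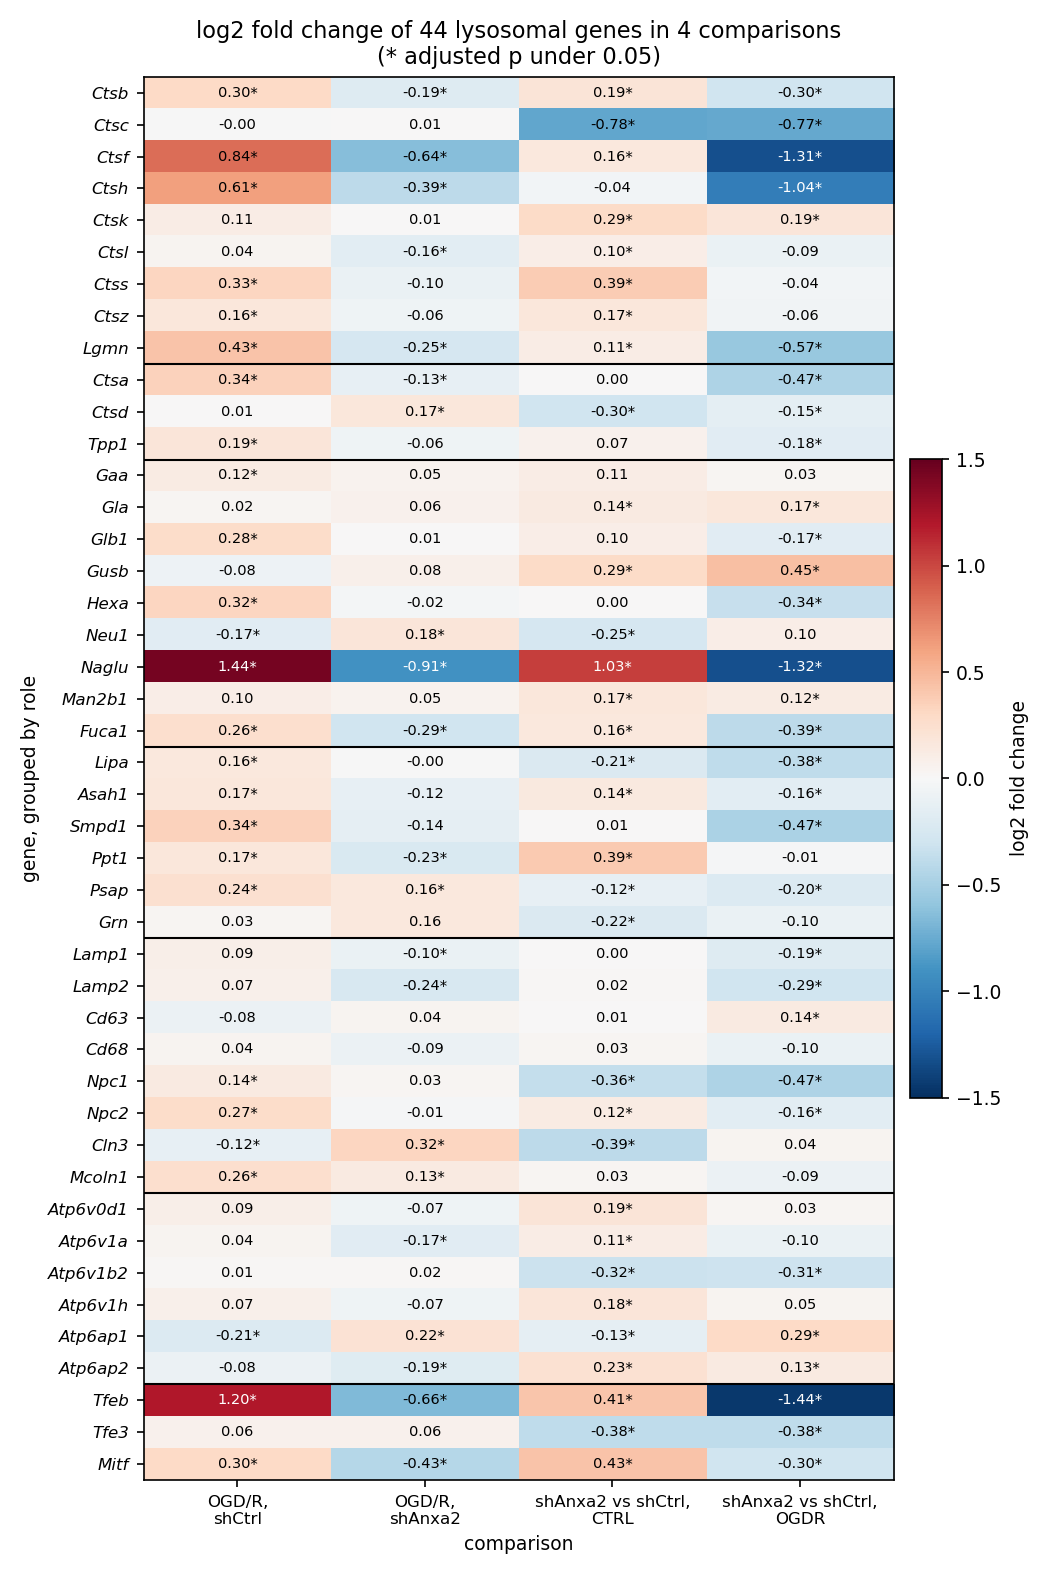
Heat map of the log2 fold change of the 44 genes (rows, grouped by role between the black lines) in the 4 comparisons of groups (columns), with an asterisk at an adjusted p under 0.05 from edgeR's quasi-likelihood test and colour from −1.5 (blue) to 1.5 (red). The first column is mostly red, with 23 genes higher and 3 lower, the fourth is mostly blue, with 7 higher and 24 lower, and Naglu, Tfeb, Ctsf and Ctsh have the strongest colours.

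In shCtrl cells, 23 of the 44 genes rose and 3 fell after OGD/R. In bulk libraries, a shift in which cells make up a culture and a change of RNA per cell cannot be told apart. Of all 11626 genes, 32.4% were called higher and 31% lower in this comparison. The median log2 fold change was 0.130 over the 44 genes and 0.00452 over all genes tested. The shift was broad and mostly small, since 4 genes rose by at least 1.5-fold and 0 fell by as much, where 11.8% and 8.27% of all genes did. The 4 were Naglu, which removes N-acetylglucosamine from heparan sulfate (fold 2.71), Tfeb (fold 2.30), Ctsf (fold 1.79) and Ctsh (fold 1.53). Those that fell were the sialidase Neu1, the lysosomal membrane protein Cln3 and the proton pump accessory subunit Atp6ap1. Leaving out 1 library at a time kept the counts between 21 and 26 higher and 2 and 3 lower.

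In shAnxa2 cells, 6 of the 44 genes were higher and 15 lower in the libraries labelled OGDR than in those labelled CTRL, and 28.2% and 26.8% of all genes were. The median log2 fold change was −0.0606 over the 44 genes and 0.00436 over all genes. By at least 1.5-fold, 0 rose and 3 fell (4.17% and 7.88% of all genes), and the 3 were Naglu, Tfeb and Ctsf. A total of 15 members were called in both lines, which share no libraries in this contrast. Of these, 13 changed in opposite directions, or 86.7%, where the share over all genes was 98.6%. They were the proteases Ctsb, Ctsf, Ctsh, Lgmn and Ctsa, the glycosidases Neu1, Naglu and Fuca1, the thioesterase Ppt1, Cln3, Atp6ap1, Tfeb and Mitf. The members that rose in both lines were Psap and the lysosomal calcium channel Mcoln1. For Psap the log2 changes were 0.24 ± 0.0424 (SE, adjusted p = 3.36e-05) in shCtrl cells and 0.16 ± 0.0425 (SE, adjusted p = 0.00317) in shAnxa2 cells. For Mcoln1 the values were 0.26 ± 0.0510 (SE, adjusted p = 0.00012) and 0.13 ± 0.0517 (SE, adjusted p = 0.0312), and the second was lost in 3 of 12 fits that each left out 1 library (adjusted p up to 0.162, without shAnxa2-OGDR replicate 3).

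Without OGD/R, 21 of the 44 genes were higher and 11 lower in shAnxa2 than in shCtrl cells, while 29.5% and 29.7% of all genes were. Naglu was higher by at least 1.5-fold (fold 2.04), and Ctsc, a protease that activates other proteases, was lower by at least that (fold 0.583), where 9.77% and 5.81% of all genes passed the same limits. The median log2 fold change was 0.101 over the 44 genes and 0.000731 over all genes. Among the libraries labelled OGDR, the balance was the other way, with 7 members higher and 24 lower in the knockdown line, against 33.8% and 34.2% of all genes. Here 0 were higher and 5 lower by at least 1.5-fold (11.8% and 14.4% of all genes), namely Tfeb, Naglu, Ctsf, Ctsh and Ctsc. The median was −0.157 over the 44 genes and −0.00335 over all genes. Of 22 members called in both line comparisons, which share no libraries, 10 differed in direction, or 45.5%, where the share over all genes was 76%. Of those that differed, Ctsf, Lgmn, Fuca1, Asah1, Npc2 and Atp6ap1 lost the call without OGD/R when 1 library was left out. Npc2 and Atp6ap1 lost it in 4 of 12 such fits each, and Asah1 also lost the call after OGD/R in 2 of 12. Higher in shAnxa2 cells both times were Ctsk, Gla, Gusb, Man2b1 and Atp6ap2, and lower both times were Ctsc, Ctsd, Lipa, Psap, Npc1, Atp6v1b2 and Tfe3. Among these, the calls of Gla and Psap without OGD/R and of Man2b1 and Atp6ap2 after OGD/R were lost when 1 library was left out, the latter pair in 7 of 12 such fits each (adjusted p up to 0.352 without shAnxa2-OGDR replicate 3 for Man2b1, and up to 0.231 without shCtrl-OGDR replicate 3 for Atp6ap2). Counts of members higher without OGD/R went down to 15 without shCtrl-CTRL replicate 2, and stayed between 15 and 22 over the 12 such fits.

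**Figure D2:**
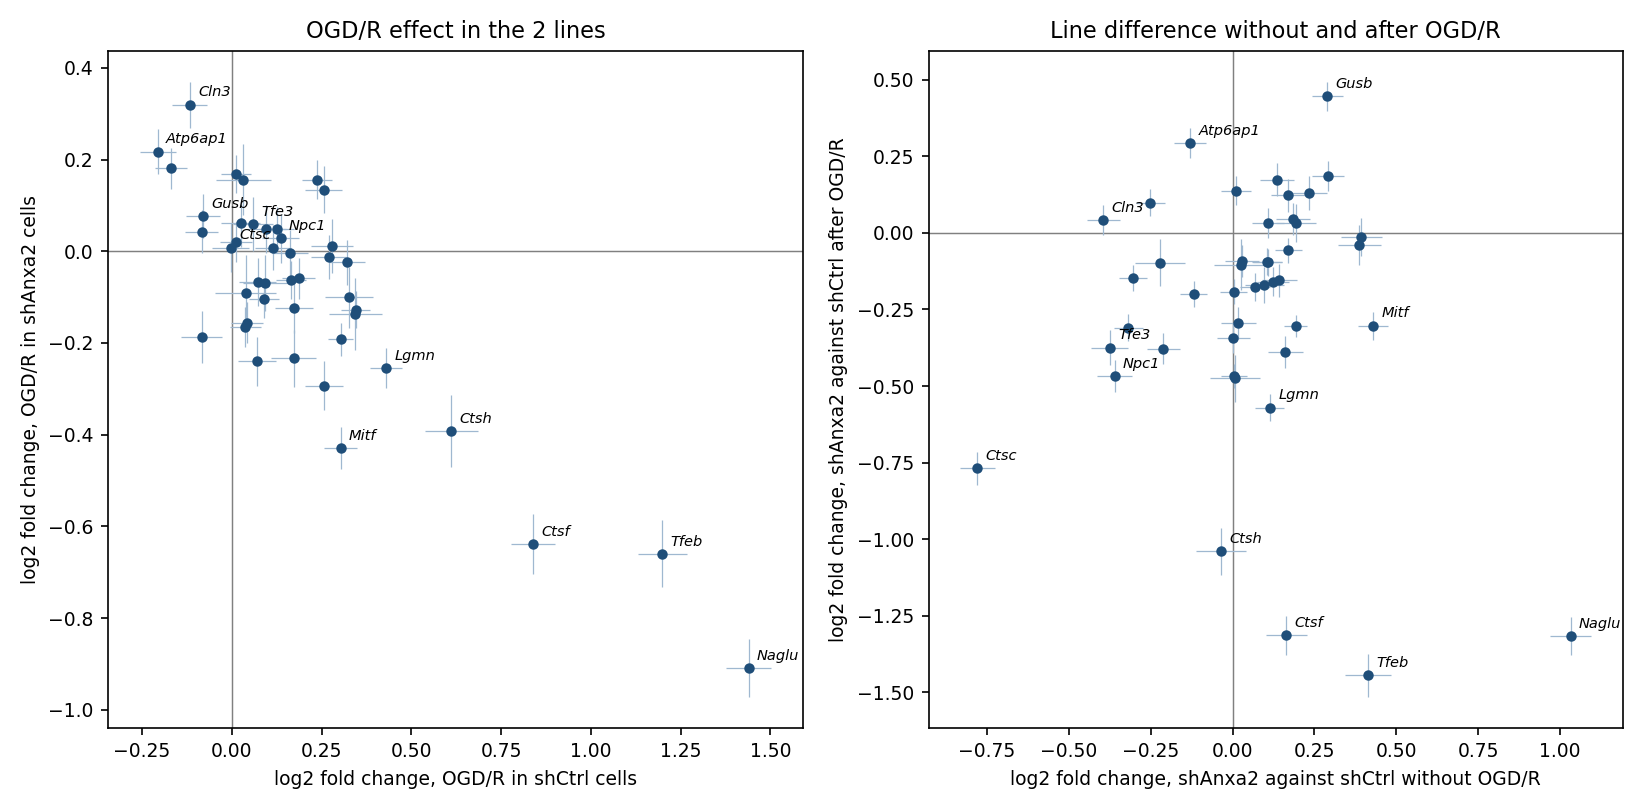
Each point is 1 of the 44 genes, with bars of 1 standard error, and axes in log2 fold change. Left, OGD/R in shCtrl cells (x) against OGD/R in shAnxa2 cells (y), where Naglu (1.44, −0.91), Tfeb and Ctsf lie far to the lower right and Ctsc and Tfe3 near the origin. Right, the line difference without OGD/R (x) against after OGD/R (y), where Ctsc (−0.78, −0.77), Npc1 and Tfe3 lie at the lower left and Gusb at the upper right.

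Averaged over both treatments, a contrast added after the values had been seen, 9 members were higher and 21 lower in shAnxa2 than in shCtrl cells, while 27.9% and 25.1% of all genes were. The median log2 fold change was −0.0544 over the 44 genes and 0.0123 over all genes. Lowest were Ctsc (−0.77, standard error 0.0373, adjusted p = 2.72e-14), Ctsf (−0.58, standard error 0.0446), Ctsh (−0.54, standard error 0.0541) and Tfeb (−0.52, standard error 0.0499). After them came Npc1, which moves cholesterol out of the lysosome (−0.41, standard error 0.0372), and Tfe3 (−0.38, standard error 0.0403). Highest were Gusb, the beta-glucuronidase (0.37, standard error 0.0341, adjusted p = 3.33e-09), and the protease Ctsk (0.24, standard error 0.0354). Mitf (0.063, adjusted p = 0.103) and Ctsb (−0.055, adjusted p = 0.0662) were not called in this mean.

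The test of whether the OGD/R change differed by line, an interaction term, gave calls for 28 members, 5 positive and 23 negative, where 34.9% and 35.1% of all genes had such calls. A negative value means that the change from CTRL to OGDR was lower in the shAnxa2 line. Past 1.5-fold there were 0 positive and 6 negative members (19.8% and 22% of all genes), namely Naglu, Tfeb, Ctsf, Ctsh, Mitf and Lgmn. Of 9 cysteine proteases, 7 had a negative interaction. The count of positive members fell from 5 to 3 without shCtrl-CTRL replicate 1, shCtrl-OGDR replicate 3, shAnxa2-OGDR replicate 1 or shAnxa2-OGDR replicate 3, as Ctsd and Gusb were lost.

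Of the transcription factors, Tfeb and Mitf changed from CTRL to OGDR in both lines, in opposite directions, and Tfe3 differed between the lines. Tfeb, the factor most closely tied to the making of lysosomes, was at 30.2, 28.4 and 28.7 CPM in the shCtrl-CTRL libraries, 70.3, 62.8 and 67.4 in shCtrl-OGDR, 40.4, 36.0 and 39.8 in shAnxa2-CTRL and 23.8, 23.0 and 27 in shAnxa2-OGDR. None of the 4 groups overlapped, and shCtrl-OGDR stood highest and shAnxa2-OGDR lowest. OGD/R changed it on the log2 scale by 1.20 ± 0.0683 (SE, adjusted p = 2.72e-13) in shCtrl cells and −0.66 ± 0.0729 (SE, adjusted p = 5.78e-08) in shAnxa2 cells (adjusted p-values here and below come from edgeR). Against shCtrl cells it was 0.41 ± 0.0705 (SE, adjusted p = 2.12e-05) without OGD/R and −1.44 ± 0.0707 (SE, adjusted p = 1.04e-14) after it, and the interaction was −1.86 ± 0.0998 (SE, adjusted p = 4.39e-14).

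Mitf, which also drives pigment cell genes, was at 79.5, 80.7 and 82.9 CPM in the shCtrl-CTRL libraries, 100.2, 99.2 and 101 in shCtrl-OGDR, 106, 109 and 112 in shAnxa2-CTRL and 80.8, 81.4 and 80.9 in shAnxa2-OGDR. The shCtrl-CTRL and shAnxa2-OGDR libraries overlapped, and the other 2 groups lay above both, with shAnxa2-CTRL on top. Its changes after OGD/R were 0.30 ± 0.0452 (SE, adjusted p = 2.81e-06) in shCtrl and −0.43 ± 0.0456 (SE, adjusted p = 3.05e-08) in shAnxa2 cells. The line differences were 0.43 ± 0.0452 (SE, adjusted p = 1.8e-08) without and −0.30 ± 0.0456 (SE, adjusted p = 2.59e-06) after OGD/R. For Tfe3, libraries held 72.0, 78.0 and 70.0 CPM in the shCtrl-CTRL libraries, 74.4, 76.0 and 79.1 in shCtrl-OGDR, 59.2, 53.7 and 56.8 in shAnxa2-CTRL and 57.3, 57.5 and 62.1 in shAnxa2-OGDR. All 6 shAnxa2 libraries lay below all 6 shCtrl libraries, and within each line the treatments overlapped. The Tfe3 line difference was −0.38 ± 0.0570 (SE, adjusted p = 4.63e-06) without and −0.38 ± 0.0571 (SE, adjusted p = 3.08e-06) after OGD/R. OGD/R gave 0.059 in shCtrl cells (95% interval −0.056 to 0.17) and 0.059 in shAnxa2 cells (95% interval −0.061 to 0.18), and neither was called.

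**Figure D3:**
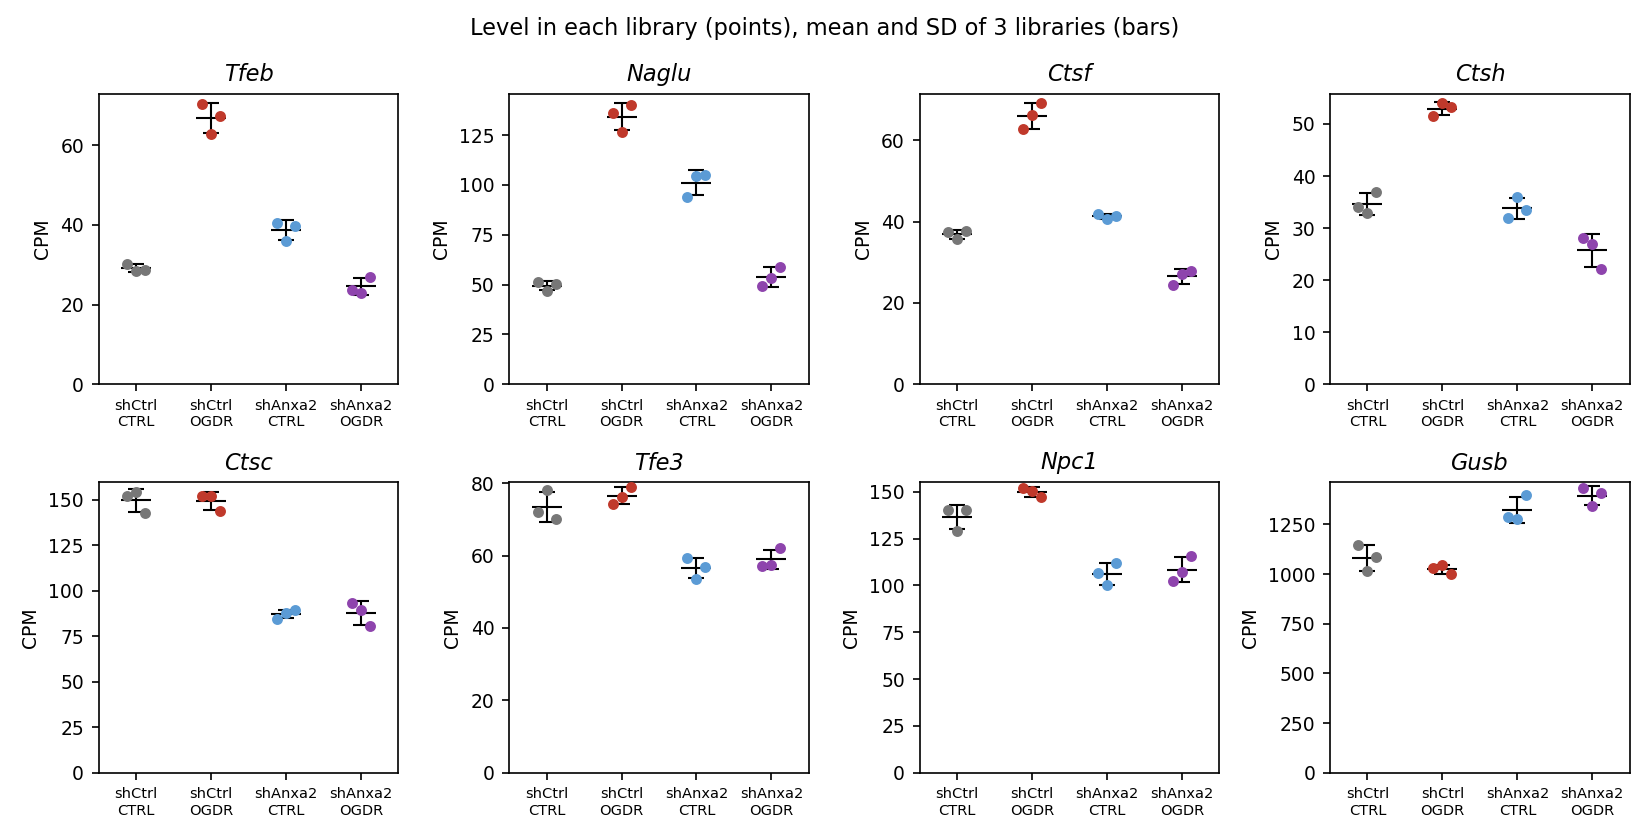
Level of 8 genes in CPM (y axes from 0) in each of the 12 libraries (points), with the mean and SD of 3 libraries (bars), for the 4 labelled groups (x). In the upper row, Tfeb, Naglu, Ctsf and Ctsh are highest in shCtrl-OGDR, Tfeb with 62.8 to 70.3 CPM. In the lower row, Ctsc, Tfe3 and Npc1 are lower and Gusb higher in all 6 shAnxa2 libraries than in all 6 shCtrl libraries.

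Promoter sequences show which members carry the E-box CACGTG close to their start. Promoters from RefSeq on GRCm38.p6, from 250 bases upstream to 50 downstream of a start, were matched to 38 of the 44 genes, with 47 starts in all. Atp6v1b2, Atp6v1h, Asah1, Ctsb, Ctsh and Npc1 had no entry. The letters CACGTG, the same on both strands, were in 14 of these 47 promoters, each of another member, and in 7.15% of all 32851 promoters of that length. The longer palindrome TCACGTGA, which contains CACGTG, was in 7 of the 47 and in 0.97% of all promoters. A 10-letter palindrome that contains both was also searched. It was in 1 of the 47, a promoter of Cln3, and in 0.33% of all promoters. CATGTG, read on both strands, was in 9 of the 47 and in 14.15% of all. A match is a string of letters and was not tested for binding. Of 22 copies of CACGTG in members, 13 lay within 100 bases upstream of the start, and the Lamp1 promoter held 4.

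The 250 bases upstream of the start are printed 5′ to 3′ in the gene's direction, for 6 members picked by hand. They are in lower case with CACGTG in capitals. No member that fell in shCtrl cells is among them, though Cln3 fell and carries CACGTG. Of the 24 matched members without CACGTG, 12 rose in shCtrl cells, and of these Tfeb alone is shown. Naglu (chr11:101069844-101070093, plus strand), Ctsf (chr19:4854915-4855164, plus strand) and Lgmn (chr12:102439093-102439342, minus strand) are shown because they rose in shCtrl cells and carry 1 copy each. Lgmn has 2 starts, and CACGTG was found at the printed start and not at the other. Mcoln1 (chr8:3500269-3500518, plus strand) rose in both lines and carries 2, and Ctsd (chr7:142387828-142388077, minus strand) carries 2 and was not called in shCtrl cells (adjusted p = 0.832). Tfeb itself (chr17:47736787-47737036, plus strand) is shown as the factor, and CACGTG was in none of its promoters.
Naglu: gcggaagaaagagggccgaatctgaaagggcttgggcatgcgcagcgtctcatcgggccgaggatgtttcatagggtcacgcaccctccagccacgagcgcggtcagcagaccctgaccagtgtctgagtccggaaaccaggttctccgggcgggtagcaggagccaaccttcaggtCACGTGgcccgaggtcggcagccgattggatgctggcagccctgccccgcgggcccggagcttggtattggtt
Ctsf: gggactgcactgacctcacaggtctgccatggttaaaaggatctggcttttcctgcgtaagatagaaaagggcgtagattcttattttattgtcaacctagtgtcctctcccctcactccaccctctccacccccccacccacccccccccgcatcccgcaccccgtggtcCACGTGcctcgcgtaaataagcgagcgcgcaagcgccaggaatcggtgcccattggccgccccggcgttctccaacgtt
Lgmn: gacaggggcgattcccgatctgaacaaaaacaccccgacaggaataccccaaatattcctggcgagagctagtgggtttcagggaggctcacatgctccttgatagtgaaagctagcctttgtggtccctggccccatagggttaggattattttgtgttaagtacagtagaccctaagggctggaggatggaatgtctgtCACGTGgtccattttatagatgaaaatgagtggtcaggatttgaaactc
Mcoln1: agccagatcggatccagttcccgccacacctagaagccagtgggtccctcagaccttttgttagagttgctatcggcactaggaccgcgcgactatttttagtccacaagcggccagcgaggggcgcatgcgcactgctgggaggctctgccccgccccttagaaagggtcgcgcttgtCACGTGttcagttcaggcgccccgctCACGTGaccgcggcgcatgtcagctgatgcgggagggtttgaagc
Ctsd: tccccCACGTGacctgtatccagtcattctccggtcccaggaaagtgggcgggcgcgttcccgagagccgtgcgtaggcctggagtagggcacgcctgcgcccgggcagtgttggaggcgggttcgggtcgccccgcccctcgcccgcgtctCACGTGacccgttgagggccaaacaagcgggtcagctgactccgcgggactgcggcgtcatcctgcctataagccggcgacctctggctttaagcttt
Tfeb: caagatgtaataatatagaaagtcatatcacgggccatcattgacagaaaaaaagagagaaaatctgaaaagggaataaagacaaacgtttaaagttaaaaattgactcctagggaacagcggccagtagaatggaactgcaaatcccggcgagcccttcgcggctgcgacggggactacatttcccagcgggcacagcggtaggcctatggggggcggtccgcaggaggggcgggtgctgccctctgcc

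Calls of members with and without CACGTG are set side by side, and their difference was not tested. After OGD/R in shCtrl cells, of the 14 with it, 7 rose and 1 fell, with a median log2 fold change of 0.109, and of the 24 without it, 12 rose and 2 fell, with a median of 0.138. In shAnxa2 cells, 3 rose and 7 fell of the 14 (median −0.0869), and 3 rose and 6 fell of the 24 (median −0.0186). Of all genes, 32.4% rose and 31% fell in shCtrl cells, and 28.2% and 26.8% in shAnxa2 cells. Between lines after OGD/R, 1 was higher and 7 lower of the 14 (median −0.122), and 6 were higher and 12 lower of the 24 (median −0.132). Between lines without OGD/R, 7 were higher and 2 lower of the 14 (median 0.106), and 11 and 7 of the 24 (median 0.0476). The interaction was positive for 2 and negative for 8 of the 14 (median −0.197), and for 3 and 12 of the 24 (median −0.148). Of all genes, 33.8% and 34.2% were called between lines after OGD/R, 29.5% and 29.7% without it, and 34.9% and 35.1% for the interaction.

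**Figure D4:**
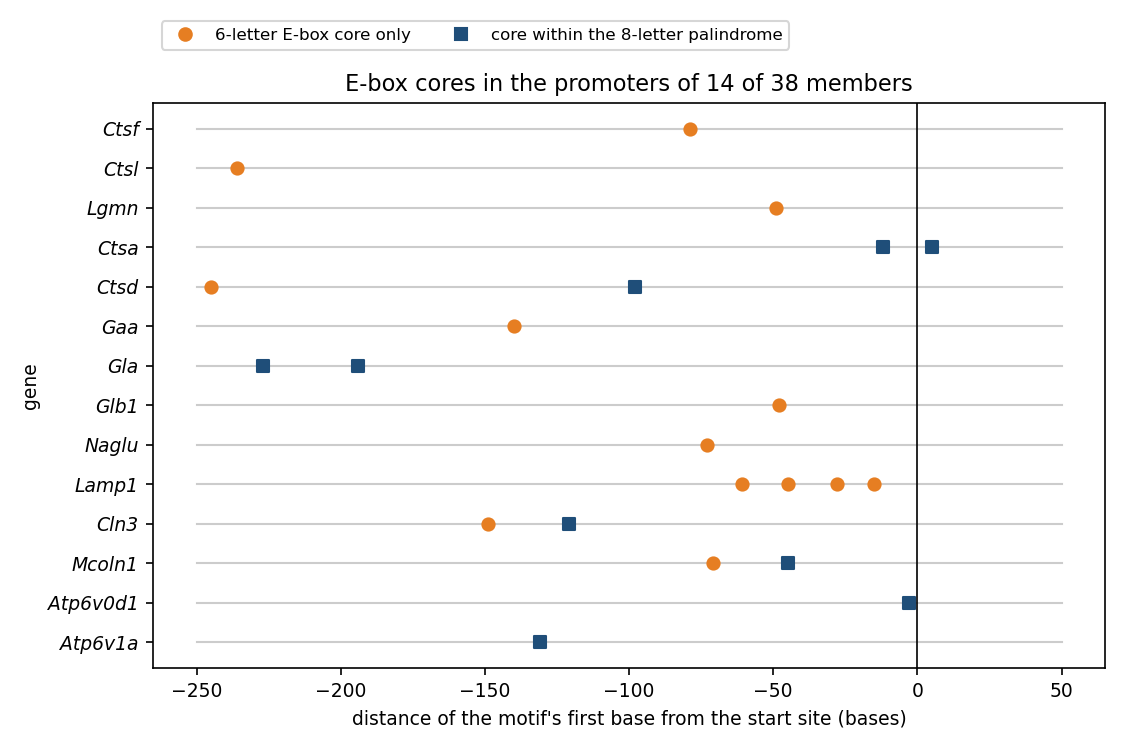
Position of each copy of the 6-letter E-box core (orange circles) and of cores within the 8-letter palindrome (blue squares) in the promoters of the 14 members that hold one, with the distance from the start site in bases on x (grey lines span the 300 bases searched). Most copies lie close to the start, 13 of 22 within 100 bases upstream, and Lamp1 holds 4.

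Among the 9 cysteine proteases, 6 rose and 0 fell in shCtrl cells after OGD/R, and 0 rose and 5 fell in shAnxa2 cells. Between lines, 7 were higher and 1 lower in shAnxa2 cells without OGD/R, and 1 higher and 5 lower after it. Over all genes, the shares higher and lower were 32.4% and 31% in shCtrl cells, 28.2% and 26.8% in shAnxa2 cells, 29.5% and 29.7% between lines without OGD/R, and 33.8% and 34.2% after it. Without shAnxa2-CTRL replicate 1, the 7 higher became 4, as Ctsf, Ctsl and Lgmn were lost. Over the 12 fits without 1 library, Ctsl lost that call in 6 (adjusted p up to 0.166, without shAnxa2-CTRL replicate 1) and Lgmn in 2 (adjusted p up to 0.124, without shCtrl-CTRL replicate 2). Ctsb, the most abundant of all 44 genes in counts, was at 3700.5, 3657 and 3637 CPM in the shCtrl-CTRL libraries, 4508, 4459 and 4602 in shCtrl-OGDR, 4358, 4145 and 4062 in shAnxa2-CTRL and 3732, 3616 and 3648 in shAnxa2-OGDR. The shCtrl-OGDR and shAnxa2-CTRL libraries lay above the other 2 groups, which overlapped. OGD/R changes on the log2 scale were 0.30 ± 0.0354 (SE, adjusted p = 6.72e-08) in shCtrl and −0.19 ± 0.0354 (SE, adjusted p = 6.62e-05) in shAnxa2 cells. The line differences were 0.19 ± 0.0354 (SE, adjusted p = 5.53e-05) without OGD/R and −0.30 ± 0.0354 (SE, adjusted p = 5.16e-08) after it.

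Ctsf, a cathepsin with a long propeptide, was at 37.4, 35.6 and 37.7 CPM in the shCtrl-CTRL libraries, 62.7, 66.3 and 69.2 in shCtrl-OGDR, 42.0, 40.6 and 41.4 in shAnxa2-CTRL and 24.4, 27.2 and 27.9 in shAnxa2-OGDR. No 2 of the 4 groups overlapped. It rose by 0.84 ± 0.0608 (SE, adjusted p = 1.82e-11) in shCtrl cells and fell in shAnxa2 cells, with −0.64 ± 0.0654 (SE, adjusted p = 1.78e-08). After OGD/R it was lower in shAnxa2 cells, with −1.31 ± 0.0636 (SE, adjusted p = 8.71e-15), and the interaction was −1.48 ± 0.0893 (SE, adjusted p = 3.57e-13). Without OGD/R the difference was 0.16 ± 0.0626 (SE, adjusted p = 0.0281), and that call was lost in 3 of 12 fits without 1 library (adjusted p up to 0.0884, without shCtrl-CTRL replicate 2).

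Ctsh, an aminopeptidase, was at 34.1, 32.8 and 37.0 CPM in the shCtrl-CTRL libraries, 51.5, 54.1 and 53.3 in shCtrl-OGDR, 31.9, 35.9 and 33.6 in shAnxa2-CTRL and 28.2, 26.9 and 22.1 in shAnxa2-OGDR. The untreated groups of the lines overlapped, shCtrl-OGDR lay above them and shAnxa2-OGDR below. Its changes after OGD/R were 0.61 ± 0.0737 (SE, adjusted p = 1.14e-07) in shCtrl and −0.39 ± 0.0794 (SE, adjusted p = 0.000196) in shAnxa2 cells, and after OGD/R the line difference was −1.04 ± 0.0769 (SE, adjusted p = 1.8e-11). Without OGD/R the line difference was −0.036, with a 95% interval of −0.19 to 0.12. Legumain, Lgmn, which cuts after asparagine and activates cathepsins, was at 800.1 ± 30.7 CPM in shCtrl-CTRL (SD, n = 3), 1078 ± 8.48 in shCtrl-OGDR, 866 ± 16.8 in shAnxa2-CTRL and 726 ± 29.6 in shAnxa2-OGDR. Its groups did not overlap, and its changes after OGD/R were 0.43 ± 0.0440 (SE, adjusted p = 7.58e-09) and −0.25 ± 0.0440 (SE, adjusted p = 3.1e-05) in the 2 lines. Ctss, which trims the invariant chain in antigen presentation, rose in shCtrl cells by 0.33 ± 0.0659 (SE, adjusted p = 0.000138) and stood at −0.10 (adjusted p = 0.203) in shAnxa2 cells. It was higher in the shAnxa2 line without OGD/R, by 0.39 ± 0.0659 (SE, adjusted p = 2.15e-05).

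Ctsc differed between the lines and was not called after OGD/R in either. It was at 152, 154 and 143 CPM in the shCtrl-CTRL libraries, 152, 152 and 144 in shCtrl-OGDR, 84.5, 87.9 and 89.1 in shAnxa2-CTRL and 93.0, 89.5 and 80.5 in shAnxa2-OGDR. The 6 shAnxa2 libraries were all below the 6 shCtrl libraries, and the treatments overlapped within each line. The line difference was −0.78 ± 0.0527 (SE, adjusted p = 8.56e-12) without OGD/R and −0.77 ± 0.0529 (SE, adjusted p = 4.89e-12) after it. The 95% interval of its change after OGD/R was −0.11 to 0.10 in shCtrl and −0.10 to 0.12 in shAnxa2 cells. Ctsk, the collagen-cutting cathepsin of osteoclasts, was at 364, 326 and 351 CPM in the shCtrl-CTRL libraries, 369, 374 and 385 in shCtrl-OGDR, 434, 418 and 423 in shAnxa2-CTRL and 437, 403 and 442 in shAnxa2-OGDR. All 6 shAnxa2 libraries lay above all 6 shCtrl libraries, with a line difference of 0.29 ± 0.0501 (SE, adjusted p = 2.38e-05) without and 0.19 ± 0.0501 (SE, adjusted p = 0.00217) after OGD/R. Its change in shCtrl cells was 0.11 ± 0.0501 (SE, adjusted p = 0.0511), which is not past the limit and was called in 5 of 12 fits without 1 library (adjusted p down to 0.0272, without shCtrl-CTRL replicate 1). Ctsz was higher by 0.16 ± 0.0413 (SE, adjusted p = 0.0013) after OGD/R in shCtrl cells, and Ctsl was lower, at −0.16 ± 0.0449 (SE, adjusted p = 0.00504), in shAnxa2 cells.

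Of the other proteases, Ctsa, a carboxypeptidase that protects beta-galactosidase and sialidase, rose in shCtrl cells. Its level was 1443 ± 23.8 CPM in shCtrl-CTRL (SD, n = 3), 1832 ± 16.8 in shCtrl-OGDR, 1447 ± 6.01 in shAnxa2-CTRL and 1325 ± 60.9 in shAnxa2-OGDR. Its log2 changes were 0.34 ± 0.0402 (SE, adjusted p = 6.77e-08) in shCtrl cells, −0.13 ± 0.0402 (SE, adjusted p = 0.00977) in shAnxa2 cells and −0.47 ± 0.0403 (SE, adjusted p = 2.83e-10) between lines after OGD/R. The call in shAnxa2 cells was lost without shAnxa2-OGDR replicate 2 (adjusted p = 0.0618). Ctsd, the main aspartic protease of the lysosome, was at 1884, 1738 and 1789 CPM in the shCtrl-CTRL libraries, 1866, 1810.2 and 1776 in shCtrl-OGDR, 1478, 1460.1 and 1443 in shAnxa2-CTRL and 1656, 1575 and 1692 in shAnxa2-OGDR. The shCtrl treatments overlapped, and both shAnxa2 groups lay below them. Its changes were 0.011 (adjusted p = 0.832) in shCtrl and 0.17 ± 0.0417 (SE, adjusted p = 0.00147) in shAnxa2 cells, and the line differences −0.30 ± 0.0417 (SE, adjusted p = 1.08e-06) without and −0.15 ± 0.0417 (SE, adjusted p = 0.00325) after OGD/R. Tpp1, a tripeptidase, rose by 0.19 ± 0.0450 (SE, adjusted p = 0.000922) in shCtrl cells and was at −0.059 (adjusted p = 0.281) in shAnxa2 cells.

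Of the 9 glycosidases, 5 rose and 1 fell in shCtrl cells after OGD/R, and 1 rose and 2 fell in shAnxa2 cells. Between lines, 5 were higher and 1 lower in shAnxa2 cells without OGD/R, and 3 higher and 4 lower after it. Of all genes, 32.4% rose and 31% fell in shCtrl cells, and 28.2% and 26.8% in shAnxa2 cells. Between lines, the shares were 29.5% and 29.7% without OGD/R, and 33.8% and 34.2% after it. Naglu had the largest changes of the 44 genes in 4 of the 5 tests of groups and interaction. Between lines after OGD/R Tfeb changed more, and in the mean line difference over both treatments Naglu was at −0.14 (adjusted p = 0.00953) and members such as Ctsc (−0.77) were further from 0. It was at 51.6, 46.9 and 50.1 CPM in the shCtrl-CTRL libraries, 136, 127 and 140.0 in shCtrl-OGDR, 93.9, 105 and 105 in shAnxa2-CTRL and 49.2, 53.5 and 58.9 in shAnxa2-OGDR. The shCtrl-OGDR libraries were highest, shAnxa2-CTRL came next, and the other 2 groups overlapped. OGD/R changes on the log2 scale were 1.44 ± 0.0627 (SE, adjusted p = 2.64e-15) in shCtrl cells and −0.91 ± 0.0636 (SE, adjusted p = 3.64e-11) in shAnxa2 cells. Between lines it was 1.03 ± 0.0632 (SE, adjusted p = 1.45e-12) without OGD/R and −1.32 ± 0.0631 (SE, adjusted p = 7.41e-15) after it, and the interaction was −2.35 ± 0.0893 (SE, adjusted p = 7.64e-17).

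Gusb was at 1145, 1014 and 1088 CPM in the shCtrl-CTRL libraries, 1029, 1044 and 998 in shCtrl-OGDR, 1289, 1279 and 1398 in shAnxa2-CTRL and 1433, 1342 and 1408 in shAnxa2-OGDR. All 6 shAnxa2 libraries were above all 6 shCtrl libraries, with a line difference of 0.29 ± 0.0482 (SE, adjusted p = 1.6e-05) without OGD/R and 0.45 ± 0.0482 (SE, adjusted p = 1.45e-08) after it. Its changes after OGD/R were −0.08 (adjusted p = 0.152) and 0.077 (adjusted p = 0.183) in the 2 lines and were not called. Neu1, a sialidase, ran against most members, with 321, 318 and 321 CPM in the shCtrl-CTRL libraries, 294, 280.1 and 279.5 in shCtrl-OGDR, 267, 269.7 and 269 in shAnxa2-CTRL and 311, 294 and 308 in shAnxa2-OGDR. The shCtrl-CTRL libraries were highest and shAnxa2-CTRL lowest, and its changes after OGD/R were −0.17 ± 0.0446 (SE, adjusted p = 0.00199) in shCtrl and 0.18 ± 0.0448 (SE, adjusted p = 0.00144) in shAnxa2 cells. Gla, the alpha-galactosidase lost in Fabry disease, was at 212, 199.9 and 214 CPM in the shCtrl-CTRL libraries, 215, 214 and 208 in shCtrl-OGDR, 225, 215 and 248 in shAnxa2-CTRL and 250.5, 229 and 239 in shAnxa2-OGDR. Its line difference was 0.14 ± 0.0531 (SE, adjusted p = 0.031) without OGD/R, a call lost in 2 of 12 fits without 1 library (adjusted p up to 0.228, without shAnxa2-CTRL replicate 3), and 0.17 ± 0.0532 (SE, adjusted p = 0.00602) after it. Hexa, a subunit of hexosaminidase, rose by 0.32 ± 0.0494 (SE, adjusted p = 4.44e-06) in shCtrl cells and was at −0.024 (adjusted p = 0.703) in shAnxa2 cells. Fuca1, a fucosidase, rose by 0.26 ± 0.0530 (SE, adjusted p = 0.000182) and fell with −0.29 ± 0.0537 (SE, adjusted p = 6.23e-05) in the same lines. Glb1, the beta-galactosidase, rose by 0.28 ± 0.0582 (SE, adjusted p = 0.000202) in shCtrl cells, while Tmppe, which overlaps it on the same strand with 6228 counts against 27307, was at −0.42. Gaa, the acid alpha-glucosidase, rose by 0.12 ± 0.0487 (SE, adjusted p = 0.0286) in shCtrl cells, lost in 3 of 12 fits without 1 library (adjusted p up to 0.0954, without shCtrl-CTRL replicate 1). Man2b1, the acid alpha-mannosidase, was at 0.10 (adjusted p = 0.115) and 0.049 (adjusted p = 0.456) after OGD/R in the 2 lines.

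Of the lipid enzymes and their helpers, 5 of 6 rose and 0 fell in shCtrl cells after OGD/R, and 1 rose and 1 fell in shAnxa2 cells, where 32.4% and 31%, and 28.2% and 26.8%, of all genes did. The 1 that fell, Ppt1, was joined by Asah1 in 6 of 12 fits without 1 library, and by Smpd1 too without shAnxa2-OGDR replicate 1. Psap was at 3174, 2949.6 and 3100.1 CPM in the shCtrl-CTRL libraries, 3830.4, 3544 and 3495 in shCtrl-OGDR, 2898, 2763 and 2830.3 in shAnxa2-CTRL and 3177, 3019 and 3267 in shAnxa2-OGDR. The shCtrl-OGDR libraries lay above all others, and shAnxa2-CTRL below. The line difference was −0.12 ± 0.0424 (SE, adjusted p = 0.0185) without OGD/R, lost in 3 of 12 fits without 1 library (adjusted p up to 0.0756, without shCtrl-CTRL replicate 1), and −0.20 ± 0.0424 (SE, adjusted p = 0.000214) after it. Ppt1, which removes palmitate from proteins, was at 48.4, 46.5 and 46.6 CPM in the shCtrl-CTRL libraries, 57.6, 52.9 and 48.7 in shCtrl-OGDR, 64.4, 62.6 and 59.0 in shAnxa2-CTRL and 55.8, 51.2 and 51.1 in shAnxa2-OGDR. The shAnxa2-CTRL libraries were highest, and its changes after OGD/R were 0.17 ± 0.0626 (SE, adjusted p = 0.0194) in shCtrl and −0.23 ± 0.0626 (SE, adjusted p = 0.00288) in shAnxa2 cells. The first was lost without shCtrl-OGDR replicate 1 (adjusted p = 0.128). Between untreated lines it differed by 0.39 ± 0.0623 (SE, adjusted p = 8.46e-06), and it shares 129 bases on the opposite strand with Cap1, which had 212181 counts against 15045. Smpd1, the acid sphingomyelinase, rose by 0.34 ± 0.0745 (SE, adjusted p = 0.000299) in shCtrl cells, and Lipa, the acid lipase, was lower in shAnxa2 cells, at −0.21 ± 0.0504 (SE, adjusted p = 0.000881) without and −0.38 ± 0.0505 (SE, adjusted p = 4.46e-07) after OGD/R. Asah1, the acid ceramidase, rose by 0.17 ± 0.0534 (SE, adjusted p = 0.00693) in shCtrl cells. Grn, progranulin, was at 0.032 (adjusted p = 0.735) and 0.16 (adjusted p = 0.0906) after OGD/R in the 2 lines, with 367 to 484 CPM within shCtrl-CTRL.

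Of the 8 membrane, cholesterol and channel genes, 3 rose and 1 fell in shCtrl cells after OGD/R, and 2 rose and 2 fell in shAnxa2 cells. These are 37.5% and 12.5%, and 25% and 25%, where 32.4% and 31%, and 28.2% and 26.8%, of all genes were called. Over the 12 fits without 1 library the counts were 2 to 4 and 0 to 1 in shCtrl cells, and 1 to 2 in each direction in shAnxa2 cells. Lamp1, the most abundant of them in counts and a main coat protein of the membrane, was at 831, 819 and 860.2 CPM in the shCtrl-CTRL libraries, 895, 883 and 896 in shCtrl-OGDR, 855, 847 and 814 in shAnxa2-CTRL and 788, 783 and 769.7 in shAnxa2-OGDR. The shCtrl-OGDR libraries lay above and shAnxa2-OGDR below the overlapping untreated groups. Its change was 0.09 ± 0.0413 (SE, adjusted p = 0.0592) in shCtrl cells, not called, and −0.10 ± 0.0413 (SE, adjusted p = 0.0354) in shAnxa2 cells, a call lost in 5 of 12 fits without 1 library (adjusted p up to 0.111, without shAnxa2-CTRL replicate 1). Between lines after OGD/R it was −0.19 ± 0.0413 (SE, adjusted p = 0.000251), and for Lamp2, its relative in chaperone-mediated autophagy, −0.29 ± 0.0536 (SE, adjusted p = 3.46e-05).

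Npc1 was at 140.1, 129 and 140.2 CPM in the shCtrl-CTRL libraries, 152, 151 and 147 in shCtrl-OGDR, 107, 100.3 and 112 in shAnxa2-CTRL and 102, 107 and 116 in shAnxa2-OGDR. The 6 shAnxa2 libraries were again all below the 6 shCtrl libraries. The line difference was −0.36 ± 0.0526 (SE, adjusted p = 2.69e-06) without and −0.47 ± 0.0526 (SE, adjusted p = 2.75e-08) after OGD/R, and the change in shCtrl cells was 0.14 ± 0.0518 (SE, adjusted p = 0.0253), lost in 3 of 12 fits without 1 library (adjusted p up to 0.106, without shCtrl-CTRL replicate 2). Npc2, its soluble partner, rose by 0.27 ± 0.0476 (SE, adjusted p = 2.79e-05) in shCtrl cells. Cln3, the protein lost in juvenile Batten disease, was at 96.5, 93.6 and 91.4 CPM in the shCtrl-CTRL libraries, 89.9, 84.1 and 85.5 in shCtrl-OGDR, 71.9, 70.8 and 71.3 in shAnxa2-CTRL and 83.9, 90.9 and 92.3 in shAnxa2-OGDR. The shAnxa2-CTRL libraries were lowest and lay apart from the other 3 groups. Its change was −0.12 ± 0.0495 (SE, adjusted p = 0.0419) in shCtrl cells, lost in 6 of 12 fits without 1 library (adjusted p up to 0.146, without shCtrl-OGDR replicate 2), and 0.32 ± 0.0507 (SE, adjusted p = 1.04e-05) in shAnxa2 cells. Its neighbour Apobr overlaps 876 bases of it on the other strand, had 28110 counts against 24092 for Cln3, and moved the same way in both lines (−0.35 and 0.34). The library kit did not mark strand, so reads in that overlap cannot be assigned. The membrane markers Cd63 and Cd68, the latter a usual label of phagocytes, were not called after OGD/R in either line, with values of −0.084 (adjusted p = 0.117) and 0.039 (adjusted p = 0.706) in shCtrl cells. Without shCtrl-CTRL replicate 2, Cd68 was called there (adjusted p = 0.0364). Npc1 shares 967 bases on the opposite strand with Rmc1, which had 12248 counts against 35575.

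Of the 6 proton pump genes, 0 rose and 1 fell in shCtrl cells after OGD/R, and 1 rose and 2 fell in shAnxa2 cells. Between lines, 4 were higher and 2 lower in shAnxa2 cells without OGD/R, and 2 higher and 1 lower after it. Of all genes, 32.4% rose and 31% fell in shCtrl cells, 28.2% and 26.8% in shAnxa2 cells, and between lines 29.5% and 29.7% were called without OGD/R and 33.8% and 34.2% after it. Without shCtrl-CTRL replicate 1, the 4 higher and 2 lower became 2 and 1, as Atp6v0d1, Atp6v1a and Atp6ap1 were lost. Over the 12 fits without 1 library, the counts after OGD/R were 1 to 2 higher and 1 to 2 lower, as Atp6ap2 was lost in 7 and Atp6v1a gained in 4. Atp6v1a, the catalytic subunit, was at 1001, 994 and 1066 CPM in the shCtrl-CTRL libraries, 1054, 1030.3 and 1057 in shCtrl-OGDR, 1098, 1139 and 1059 in shAnxa2-CTRL and 967, 1004 and 967 in shAnxa2-OGDR. Its changes after OGD/R were 0.038 (adjusted p = 0.458) in shCtrl and −0.17 ± 0.0431 (SE, adjusted p = 0.00224) in shAnxa2 cells. Its line difference without OGD/R, 0.11 ± 0.0431 (SE, adjusted p = 0.0362), was lost in 4 of 12 fits without 1 library (adjusted p up to 0.155, without shAnxa2-CTRL replicate 2). Atp6ap1, an accessory subunit, was at 359, 338 and 358 CPM in the shCtrl-CTRL libraries, 307, 311 and 296 in shCtrl-OGDR, 310.4, 312 and 341 in shAnxa2-CTRL and 381, 360.5 and 379.6 in shAnxa2-OGDR. The shAnxa2-OGDR libraries were highest and shCtrl-OGDR had the lowest mean, while shAnxa2-CTRL overlapped both shCtrl groups, and the changes were −0.21 ± 0.0495 (SE, adjusted p = 0.000847) and 0.22 ± 0.0496 (SE, adjusted p = 0.000676) in the 2 lines. Between lines it was 0.29 ± 0.0496 (SE, adjusted p = 1.33e-05) after OGD/R and −0.13 ± 0.0495 (SE, adjusted p = 0.027) without it, the latter lost in 4 of 12 fits without 1 library (adjusted p up to 0.115, without shAnxa2-CTRL replicate 1). Atp6v1b2, a subunit of the ATP-splitting head, differed between the lines, with −0.32 ± 0.0442 (SE, adjusted p = 1.36e-06) without and −0.31 ± 0.0443 (SE, adjusted p = 1.22e-06) after OGD/R. Its change after OGD/R had 95% intervals of −0.079 to 0.10 and −0.072 to 0.11 in the 2 lines. Atp6ap2, the (pro)renin receptor, fell in shAnxa2 cells, with −0.19 ± 0.0565 (SE, adjusted p = 0.00715). Atp6v1h and Atp6v0d1, further pump subunits, were higher in shAnxa2 cells without OGD/R, by 0.18 ± 0.0520 (SE, adjusted p = 0.00373) and 0.19 ± 0.0611 (SE, adjusted p = 0.00885). The latter call was lost without shCtrl-CTRL replicate 1 (adjusted p = 0.0901), and without shCtrl-CTRL replicate 2 Atp6v0d1 was also called after OGD/R in shCtrl cells (adjusted p = 0.00709).

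Lists of other lysosomal genes gave the setting. Of 25 other hydrolases tested, 13 rose and 1 fell in shCtrl cells after OGD/R, with a median log2 fold change of 0.215, where 32.4% and 31% of all genes rose and fell. Gm2a, the ganglioside activator, rose by 0.91 (standard error 0.0579) and the mannosidase Man2b2 by 0.85 (standard error 0.0467). In shAnxa2 cells 6 rose and 7 fell, or 24% and 28%, close to the 28.2% and 26.8% of all genes, and Man2b2 was at −0.58 (standard error 0.0472). After OGD/R, 2 were higher and 16 lower in the knockdown line (median −0.375), where 33.8% and 34.2% of all genes were, with Gm2a at −1.27 (standard error 0.0598). Of 19 other membrane proteins and transporters, 10 rose and 2 fell in shCtrl cells, and 3 rose and 5 fell in shAnxa2 cells. In shCtrl cells the proton channel Tmem175 rose (0.88, standard error 0.0803), as did the sialic acid exporter Slc17a5 (0.73, standard error 0.063). Those that fell there were Cd164 (−0.82, standard error 0.0546) and Laptm5 (−0.46, standard error 0.0554). In shAnxa2 cells Cd164 was at 0.49 (standard error 0.0545) and Laptm5 at 0.39 (standard error 0.0555).

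Of 10 genes of mannose 6-phosphate tagging and sorting, 1 rose and 5 fell in shCtrl cells, and 5 rose and 1 fell in shAnxa2 cells. Of all genes, 32.4% rose and 31% fell in shCtrl cells, and 28.2% and 26.8% in shAnxa2 cells. The difference of the 10 genes from the hydrolases was not tested. Nagpa, which uncovers the mannose 6-phosphate tag, was at −0.41 (standard error 0.0717) and 0.52 (standard error 0.0714). Of 12 other V-ATPase subunits, 4 rose and 5 fell in shCtrl cells, with Atp6v0d2 at 1.16 (standard error 0.138) and Atp6v0a2 at −0.71 (standard error 0.0464). Of 15 genes tested of Ragulator, the Rag GTPases, mTORC1 and folliculin, which hold Tfeb in the cytoplasm when nutrients are plentiful, 5 rose and 4 fell in shCtrl cells, or 33.3% and 26.7%, close to the 32.4% and 31% of all genes. Fnip2, a folliculin partner, rose by 0.85 (standard error 0.0585), folliculin itself, Flcn, was at −0.36 (standard error 0.0441), and the mTORC1 subunit Mlst8 was at −0.80 (standard error 0.0983). Of 8 cystatins and stefins, inhibitors of cysteine cathepsins, 3 were tested, and Cst7 was higher in the shAnxa2 line without OGD/R by 1.31 (standard error 0.0543).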

How the data were processed

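RNA of 12 BV2 cell libraries was sequenced, and the authors deposited raw read counts of 21834 protein-coding genes, with 5636 at 0 in every library. The same table holds 12 columns of counts scaled by library, which were not used. The submitters' processing notes name HISAT2 2.0.4 and the build mm39. The study's methods, written for hippocampal RNA, name other tools, and a strand setting for counting is not given in the sources used here. The labels number the libraries of a group 1 to 3 and the study calls them biological replicates. By the study each biological replicate holds 3 technical ones. Pairs of libraries of 1 group differed by more than counting error (chi-square per gene 4.00 to 13.28), so none was taken as a recount of another. This check cannot tell separate cultures from separate preparations of 1 RNA.

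Genes with at least 0.5 CPM in at least 3 libraries were tested in R 4.3.3 with edgeR 4.0.16 (TMM factors, quasi-likelihood test, 1 model of 4 group means) with Benjamini-Hochberg adjustment, and the standard error is the log2 fold change over the square root of F. The common biological coefficient of variation was 5.35%. Members, roles and lists were chosen with earlier results of these data known. Values in every library were set for Anxa2, the 3 factors, the most abundant member of each role, and up to 4 members per direction and comparison with the largest called change. Up to 3 genes per direction were named of each other list, and 1 gene that this rule names is not reported here. The hypoxia list and the mean line difference were added after seeing the data. Alternatives were other scaling factors, filters, DESeq2 1.42.0, fits of 2 groups, the replicate number as a block, a fold limit and leaving out each library. The steps were tested on simulated counts. Exon lengths came from GENCODE on GRCm38, used for level per kb, and promoters from RefSeq. Plots were drawn with matplotlib 3.10.9 in Python 3.11.15.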

Additional observations from a re-analysis of the deposited data

Results flagged for a closer look

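Of the members given with values in every library, 14 were called in edgeR's quasi-likelihood test of the interaction. Values are the log2 change in shAnxa2 minus that in shCtrl cells. Some of these members were chosen for the size of this same interaction, so their calls are no separate evidence. Of all 44 members 28 were called, where 34.9% of all genes had positive and 35.1% negative calls. Among the factors, Tfeb had −1.86 (standard error 0.0998, adjusted p = 4.39e-14) and Mitf −0.73 (standard error 0.0642, adjusted p = 3.27e-10). Negative values were also found for the proteases Ctsf, −1.48 (standard error 0.0893, adjusted p = 3.57e-13), Ctsh, −1.003 (standard error 0.108, adjusted p = 1.25e-08), and Ctsb, −0.50 (standard error 0.0501, adjusted p = 3.98e-09). Naglu had the value furthest from 0, −2.35 (standard error 0.0893, adjusted p = 7.64e-17). Ppt1 had −0.41 (standard error 0.0885, adjusted p = 0.000267), Lamp1 −0.20 (standard error 0.0584, adjusted p = 0.0048) and the pump subunit Atp6v1a −0.20 (standard error 0.0609, adjusted p = 0.00485).

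Positive values, where the change was higher in shAnxa2 cells, were found for Cln3, 0.44 (standard error 0.0708, adjusted p = 6.91e-06), Atp6ap1, 0.42 (standard error 0.0701, adjusted p = 9.24e-06), and Neu1, 0.35 (standard error 0.0633, adjusted p = 2.89e-05). Ctsd had 0.16 (standard error 0.0590, adjusted p = 0.0211) and Gusb 0.16 (standard error 0.0681, adjusted p = 0.0442), and these calls were lost in 4 and 8 of the 12 fits that each left out 1 library (adjusted p up to 0.0754 without shAnxa2-OGDR replicate 3, and up to 0.129 without shCtrl-CTRL replicate 1). Over all genes the interaction was positive for 34.9% and negative for 35.1%, and each value rests on the treatment names of the shAnxa2 libraries.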

How the results depend on the processing

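The counts of members called, 10 in all, were recomputed under each alternative, and in 191 of 208 cases they stayed within 1.5 times the value reported. The 17 others came from the fold limit and from 1 count. With a fold of at least 1.5 the counts higher and lower became 4 and 0 for OGD/R in shCtrl cells, 0 and 3 for OGD/R in shAnxa2 cells, 1 and 1 between lines without OGD/R, 0 and 5 after OGD/R, and 0 and 6 for the interaction, by construction of the stricter call. The positive interactions went from 5 to 3 with upper-quartile factors, with library totals alone and without a filter, and between 3 and 5 when 1 library was left out, and the cause was not tested. Of the called changes of members, 0 turned direction in these alternatives. Of 138 calls of members over the 5 tests, DESeq2 lost 2 and gained 7, and upper-quartile factors lost 8 and gained 19. Leaving out 1 library at a time changed 26 calls to not called in at least 1 fit and 17 the other way.

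Replicate numbers did not pair the samples, since deviations of libraries with the same number correlated at −0.0513 to 0.135 over 18 pairs, 1 of them over 0.1. With the number as a block, OGD/R in shCtrl cells gave 24 higher and 2 lower (Cln3 lost and Ctsk gained), the lines after OGD/R gave 6 and 24 (Atp6ap2 lost), and the block changed no other call of a member. Depth is least for Tfeb, Ctsf, Ctsh and Smpd1 among the low genes: the fewest reads of a member in a library were those of Ctsh, 456.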
